A study of Mus musculus with 25 samples.

Results

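The comparison described here sets hepatocytes exposed to interleukin-6 (IL-6) against hepatocytes from livers injured by DDC diet, with STAT3 deleted in both. It rests on 6 of the 25 samples of the series and of its 13 hepatocyte libraries: the 3 libraries labelled IL-6 STAT3KO and the 3 labelled DDC STAT3KO, chosen by their labels, with all genes described. Both groups came from Stat3_floxed mice of strain C57BL/6J 129SV that carried AAV-TBG-Cre for 2 weeks, a viral vector in which a hepatocyte promoter (TBG) drives the Cre recombinase. The IL-6 STAT3KO group also received IL6 plasmids by hydrodynamic tail vein injection (HTVi) for 1 week, and the DDC STAT3KO group was fed DDC diet for 1 week. The other hepatocyte groups give context: IL-6 (WT mice, IL6 plasmids by HTVi for 1 week, no AAV, n = 3), DDC (Stat3_floxed mice given AAV-TBG-GFP for 2 weeks and, for 1 week, the DDC diet, n = 2) and GFP plasmid (WT mice, GFP plasmids by HTVi for 1 week, no AAV, n = 2). Cells were isolated by liver perfusion and flow sorting, and sequenced RNA was counted per gene. No STAT3-deleted library without IL-6 or DDC was used here, so the plasmid injection and the diet differ together between the groups and each has no untreated STAT3-deleted reference. No label gives an age, or states that each replicate is another animal. The p-values below therefore measure only the spread between these samples, which may be technical.

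IL-6 binds its receptor together with gp130 (encoded by Il6st), which activates the JAK kinases and, in hepatocytes, mainly the transcription factor STAT3. STAT3 switches on acute phase proteins and its own inhibitor Socs3. Interferons act through the same kinase family and switch on a broad set of immune defence genes. DDC is a porphyrin-raising compound added to mouse diet that obstructs small bile ducts. It is known for keratin aggregates in hepatocytes, oxidative stress and the appearance of biliary genes in hepatocytes.

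Total counts per library lay between 13.6 M and 18.2 M (M, counts in units of 1e6) in the 6 libraries. Within a group the correlation of log2 CPM (a gene's counts scaled to the size of its library) across genes was 0.957 to 0.972 for IL-6 STAT3KO and 0.937 to 0.966 for DDC STAT3KO. DDC STAT3KO replicate 3 stood apart: on the second principal component of the 13 libraries it lay at -10.9, while the other DDC STAT3KO libraries lay at -59.6 and -64.7 and both DDC libraries with STAT3 intact at -56.9 and -65.0. It had far fewer biliary transcripts (Spp1, the bile duct matrix protein osteopontin, 2.32 CPM against 244 and 226 CPM) and more of the drug-induced P450 Cyp2b10 (1368 CPM against 103.6 and 91.9 CPM), so counts that rest on it are given with and without it. Mitochondrial transcripts took 4.16 to 5.92% of counts in IL-6 STAT3KO and 2.03, 5.38 and 5.26% in DDC STAT3KO. Hepatocyte markers were high in every library: 11 of 12 listed were in the table, with summed levels of 100010 to 162360 CPM in IL-6 STAT3KO and 92238 to 124620 CPM in DDC STAT3KO, and none was at 0.

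Stat3 itself (chr11:100885098-100939540, GRCm38, minus strand) was counted over the whole gene, which does not check the deleted part, since the labels do not say which exons are floxed. In IL-6 STAT3KO its level was 116, 96.0 and 116 CPM, in DDC STAT3KO 62.1, 56.3 and 87.3 CPM, while with STAT3 intact it was at 339.7 to 424 CPM in IL-6, 150.1 and 112 CPM in DDC and 109 and 98.9 CPM with GFP plasmid. Saa1, an acute phase gene driven by IL-6 through STAT3, stood at 21.9, 37.9 and 17.4 CPM in IL-6 STAT3KO and at 11912 to 16146 CPM in IL-6 libraries with STAT3 intact. Reads of Il6, from the plasmid or the gene, were seen as well: the IL-6 STAT3KO libraries were at 0.743, 0.559 and 1.05 CPM, 39 reads in all, and the DDC STAT3KO libraries held none, which is at least 14.8-fold higher against a floor of 3 counts over the group. In the test across all genes described next, Il6 did not pass (adjusted p = 0.391).

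With edgeR's quasi-likelihood test and Benjamini-Hochberg adjustment over 14339 genes, 1410 genes (9.83%) differed at an adjusted p under 0.05. Of these 718 (5.01%) were higher and 692 (4.83%) lower in IL-6 STAT3KO than in DDC STAT3KO, and the median log2 fold change of all genes tested was -0.03. Fold changes are given throughout as IL-6 STAT3KO over DDC STAT3KO on the log2 scale, with their standard error (SE), and "called" means past that threshold. With an absolute log2 fold change over 1 required as well, 518 (3.61%) were higher and 417 (2.91%) lower. The libraries of the 2 groups did not overlap for 3736 genes (26.1%), the background for each statement on overlap below. Genes named for the largest differences, such as Igtp, Cd74, Krt8, Klf6, Sprr1a and Ly6d, were picked among those without overlap. For them the lack of overlap is no added result. The counts move with the libraries: without DDC STAT3KO replicate 3 they were 1000 higher and 921 lower, and without IL-6 STAT3KO replicate 3 they were 370 and 232.

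**Figure D1:**
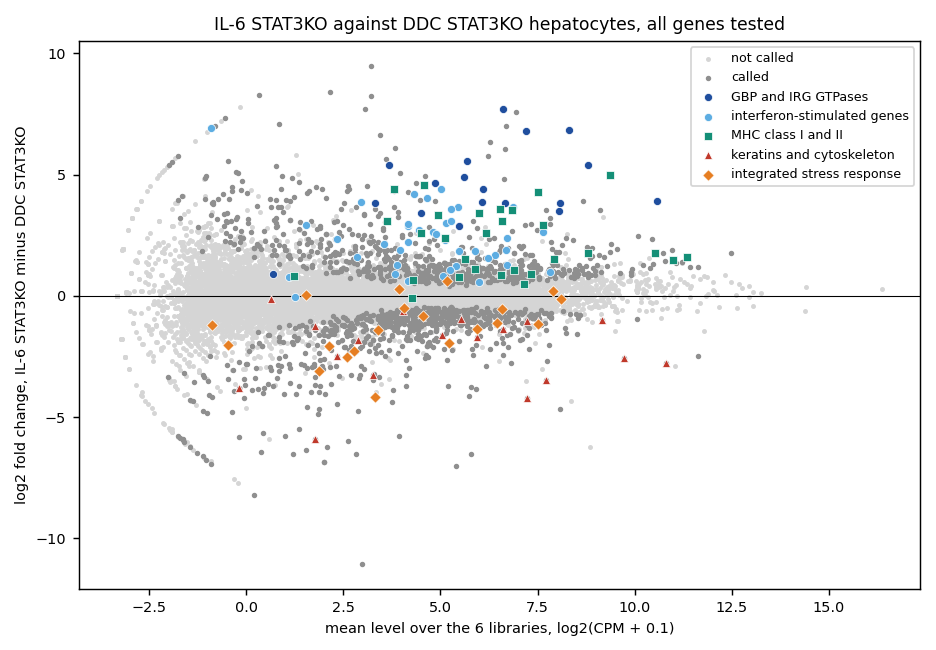
Mean level of each gene tested in the 6 libraries, as log2(CPM + 0.1), on the x axis against its log2 fold change, IL-6 STAT3KO over DDC STAT3KO, on the y axis. Each point is 1 gene and the coloured points are the members of 5 gene groups: the GTPases, interferon-stimulated and MHC genes lie mostly above 0, the keratin and stress response genes mostly below.

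Gene groups of immune defence were higher in IL-6 STAT3KO and groups of the cytoskeleton and of stress in DDC STAT3KO. Of 40 interferon-stimulated genes tested 31 were higher in IL-6 STAT3KO, as were 9 of 11 guanylate-binding proteins, 7 of 7 immunity-related GTPases, 18 of 21 genes of MHC class I presentation and 7 of 8 of MHC class II presentation, and no member of these lists was lower, where 5.01% of all genes tested were called higher. On the DDC side 13 of 19 keratin and cytoskeleton genes were higher, as were 7 of 20 genes of the integrated stress response, 7 of 19 immediate early genes and 4 of 17 biliary and progenitor genes, where 4.83% of all genes tested were called in that direction. The lists share members: Krt23 and Anxa2 stand in both the keratin and the biliary list, and Atf3 in both the stress and the immediate early list.

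**Figure D2:**
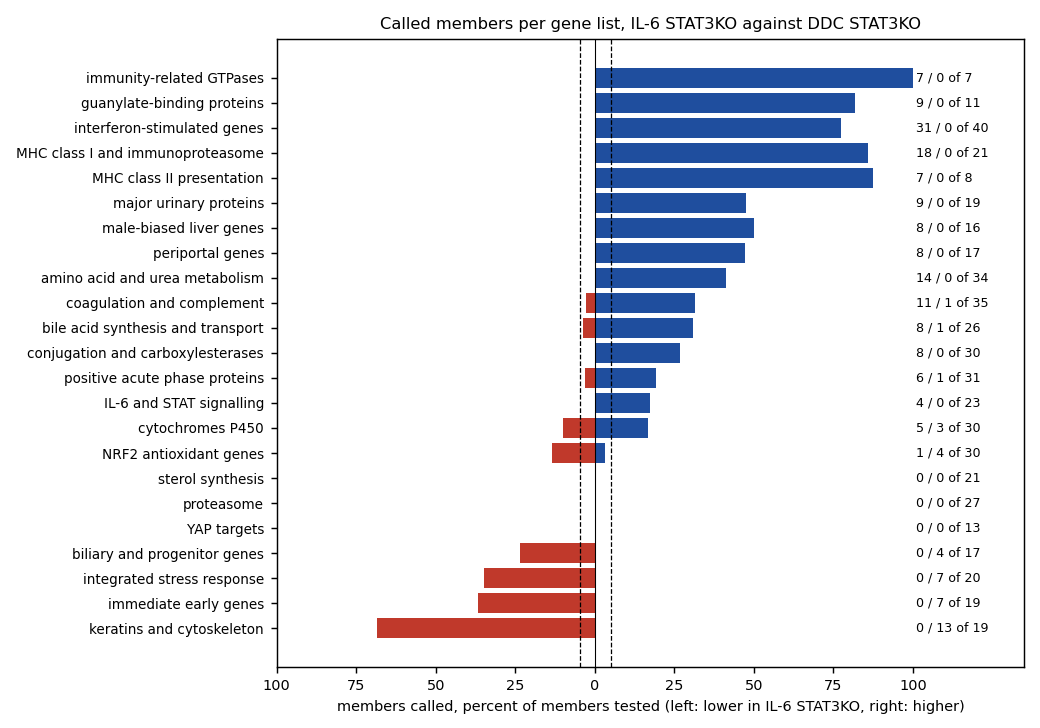
Percent of the tested members of 23 gene lists called higher (bars to the right) or lower (bars to the left) in IL-6 STAT3KO than in DDC STAT3KO, with the counts beside the bars. The dashed lines mark the share of all genes tested, 5.01% higher and 4.83% lower, and the immune lists reach far beyond the right line, the cytoskeleton list far beyond the left.

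Immunity-related GTPases and guanylate-binding proteins, families that act in defence against intracellular pathogens, differed by factors that set whole libraries apart. Igtp (chr11:58199556-58207591, plus strand), an immunity-related GTPase also named Irgm3, was at 989, 586 and 1049 CPM in IL-6 STAT3KO and at 21.3, 20.4 and 19.98 CPM in DDC STAT3KO. All 3 IL-6 STAT3KO libraries stood far above all 3 DDC STAT3KO libraries, and the log2 fold change was 5.41 ± 0.33 (SE, adjusted p = 8.61e-06). Its relative Irgm1 (chr11:48861968-48871683, minus strand) was at 488, 358 and 607 CPM against 40.04, 51.8 and 38.3 CPM, a log2 fold change of 3.48 ± 0.26 (adjusted p = 4.09e-05). The guanylate-binding protein Gbp7 (chr3:142530342-142550149, plus strand) was at 179, 131 and 262 CPM against 8.86, 13.3 and 18.2 CPM, a log2 fold change of 3.83 ± 0.31 (adjusted p = 5.06e-05). For both genes the groups lay apart by several fold with no library between them.

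The 250 bases upstream of the annotated starts of these 3 genes (RefSeq, GRCm38.p6) are shown because they hold the core letters of the interferon-stimulated response element, a regulatory site of interferon-induced genes, GAAA and GAAA with any 2 bases between them, searched on both strands and given in capitals. They lie at chr11:58199306-58199555 (plus strand, Igtp), chr11:48871421-48871670 (minus strand, Irgm1) and chr3:142530086-142530335 (plus strand, Gbp7). Each reads 5′ to 3′ towards the gene. Irgm1 holds 2 overlapping matches, and the match of Gbp7 lies on the opposite strand. For Irgm1 the RefSeq start lies inside the gene position given above, which is from GENCODE. Its stretch therefore falls within the GENCODE span and is upstream only of the RefSeq start.
Igtp: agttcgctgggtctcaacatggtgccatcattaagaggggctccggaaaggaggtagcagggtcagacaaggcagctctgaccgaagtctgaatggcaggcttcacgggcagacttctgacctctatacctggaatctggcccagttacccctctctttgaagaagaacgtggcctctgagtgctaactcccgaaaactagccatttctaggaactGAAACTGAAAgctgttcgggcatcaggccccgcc
Irgm1: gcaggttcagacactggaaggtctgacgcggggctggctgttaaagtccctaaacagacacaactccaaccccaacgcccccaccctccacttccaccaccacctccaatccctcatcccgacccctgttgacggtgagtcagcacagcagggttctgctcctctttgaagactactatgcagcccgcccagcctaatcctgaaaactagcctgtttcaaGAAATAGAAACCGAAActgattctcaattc
Gbp7: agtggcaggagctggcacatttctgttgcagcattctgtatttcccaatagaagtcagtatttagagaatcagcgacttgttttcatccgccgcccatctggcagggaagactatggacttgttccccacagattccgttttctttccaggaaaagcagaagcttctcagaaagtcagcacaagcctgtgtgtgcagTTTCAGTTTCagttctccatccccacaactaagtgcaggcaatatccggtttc
These letters were found in the promoters of 5 of 5 matched guanylate-binding proteins and 5 of 5 matched immunity-related GTPases, and in 10 of 29 matched interferon-stimulated genes (34.5%), where 3.46% of all 27025 genes with a promoter in the table had them. Gbp2b and Gbp5, which were not called, have them too. Among all genes called higher 45 of 520 matched had a match (8.65%), among those called lower 7 of 535 (1.31%), and among all genes tested 3.28% of 10630. The gamma-activated site TTCNNNGAA, which reads the same on both strands and can overlap the first motif, was found in 4 of 5 immunity-related GTPases, 2 of 5 guanylate-binding proteins and 7 of 29 interferon-stimulated genes, against 8.13% of all promoters. A match describes letters only, not a bound site.

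Most other members of these GTPase families were called higher too. Tgtp1 and Tgtp2, near-identical T cell-specific GTPases on chromosome 11 whose reads could be split between them, were called at log2 fold changes of 6.86 ± 0.53 and 7.71 ± 0.54: Tgtp1 was at 499 to 758 CPM in IL-6 STAT3KO and 4.57 to 6.24 CPM in DDC STAT3KO. Irgm2 (3.84 ± 0.38) and Iigp1 (3.89 ± 0.30) were higher too. Iigp1 was at 2402, 2565 and 3627 CPM against 183, 194 and 203 CPM, and its level in the GFP plasmid libraries was already 282 and 297 CPM. Gvin1, a very large interferon-induced GTPase, was at 23.5 to 26.3 CPM in IL-6 STAT3KO and was seen in only 1 DDC STAT3KO library, at 1.59 CPM. Among the guanylate-binding proteins Gbp10 was at 238, 204 and 438 CPM against 3.87, 1.77 and 2.10 CPM, a log2 fold change of 6.82 ± 0.61 (adjusted p = 1.06e-04). Gbp11 (5.54), Gbp6 (4.89), Gbp8 (4.66), Gbp9 (4.42), Gbp3 (3.85), Gbp4 (3.81) and Gbp2 (2.89) were also higher, and these paralogs share sequence, so their single values are uncertain. The exceptions were Gbp5, at 1.49 to 2.33 CPM against 0.449 to 1.499 CPM, and Gbp2b, which was at 39.1, 0.311 and 83.6 CPM against 8.04, 0.363 and 3.14 CPM and so was low in replicate 2 of both groups. Summed over the family, guanylate-binding proteins reached 767 to 1658 CPM in IL-6 STAT3KO, 42.8 to 66.6 CPM in DDC STAT3KO and 38.0 to 57.9 CPM with GFP plasmid.

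**Figure D3:**
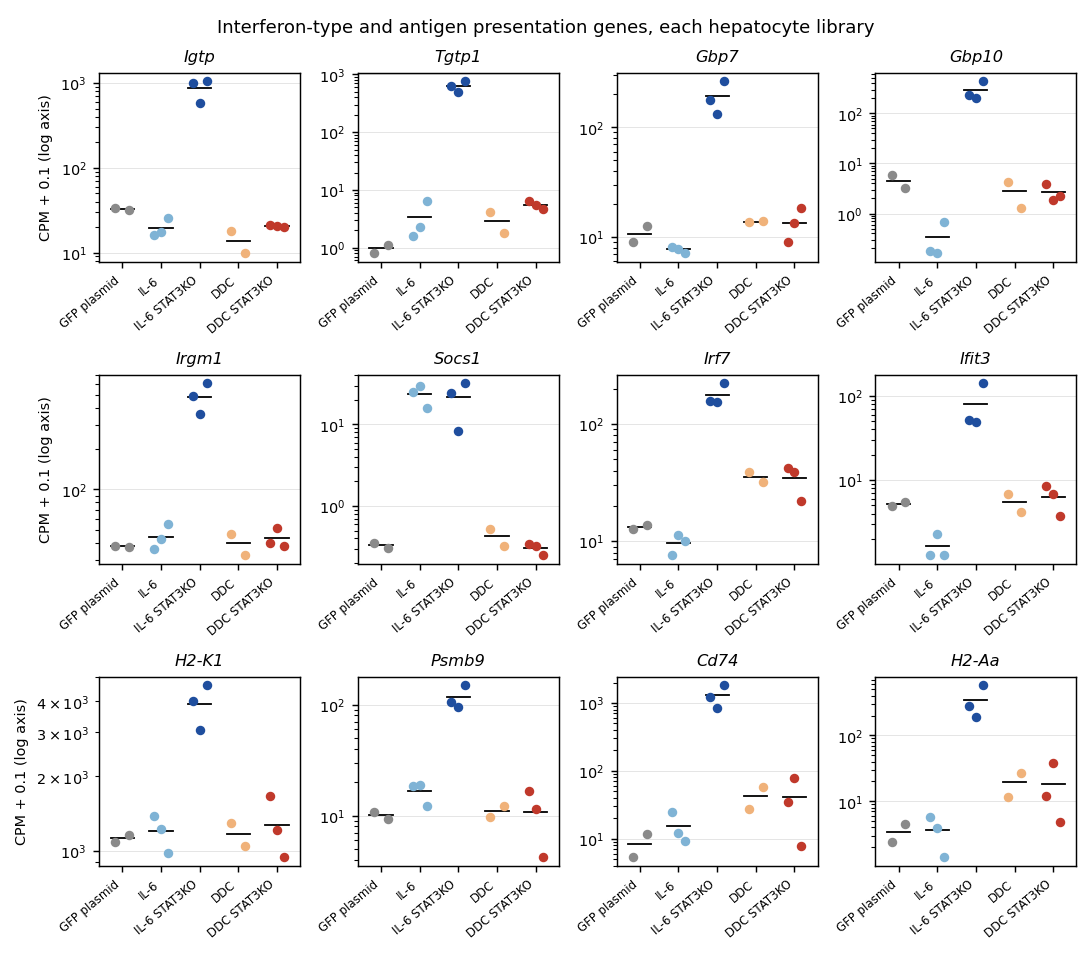
CPM + 0.1 on a log axis for 12 interferon-related genes in each of the 13 hepatocyte libraries, by group: points are libraries and bars are group means. For Igtp, Tgtp1 and Gbp7 the 3 IL-6 STAT3KO libraries lie above every library of the other 4 groups, while Socs1 is high in both IL-6 groups.

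Signalling genes of the IL-6 and interferon pathways split. Socs1 (chr16:10782240-10785536, minus strand), the inhibitor of JAK kinases that interferon induces, was at 24.4, 8.26 and 31.9 CPM against 0.242, 0.227 and 0.150 CPM, a log2 fold change of 6.61 ± 0.57 (adjusted p = 7.67e-05). All 3 IL-6 STAT3KO libraries lay above the DDC STAT3KO libraries. Socs3, the inhibitor that STAT3 itself induces, did not pass: it was at 6.69, 4.53 and 3.97 CPM against 9.54, 11.0 and 6.14 CPM, a log2 fold change of -0.82 ± 0.31 (adjusted p = 0.12), and the groups overlapped. The receptor genes were close in both groups, with log2 fold changes of 0.02 ± 0.42 for Il6ra and -0.16 ± 0.20 for Il6st. Lifr, the receptor of the related cytokine LIF, was also higher (1.58 ± 0.30, adjusted p = 0.00732). So was the kinase gene Pim1 (1.51 ± 0.33, adjusted p = 0.0153). In all 4 of the 23 genes of this list were called, none of them lower, where 5.01% of all genes were called higher. Stat3 did not pass (0.67 ± 0.20, adjusted p = 0.0571) although its 3 IL-6 STAT3KO libraries lay above the 3 DDC STAT3KO libraries. Without DDC STAT3KO replicate 3 it passed, at 0.88 (adjusted p = 0.0129).

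The classical interferon-stimulated genes were higher as a group, with a median log2 fold change of 2.26 over the 40 tested. Irf7, the transcription factor that amplifies interferon responses, was at 157, 153 and 222 CPM against 42.1, 38.6 and 21.9 CPM, a log2 fold change of 2.37 ± 0.26 (adjusted p = 2.77e-04). Ifit3, which binds viral RNA complexes, was at 51.9, 49.6 and 141 CPM against 8.33, 6.77 and 3.67 CPM, with a log2 fold change of 3.68 ± 0.46 (adjusted p = 6.62e-04). IL-6 STAT3KO replicate 3 was the highest library for Ifit3 and no libraries overlapped. Rtp4, a receptor transporter protein that interferon induces, was at 60.7, 58.8 and 69.1 CPM against 7.55, 10.9 and 4.94 CPM. Herc6 (2.62 ± 0.27), a ligase that attaches the ubiquitin-like protein Isg15, and Isg15 itself (2.54 ± 0.35) were higher, as were Irf1 (1.85 ± 0.34) and Oas1a (2.95 ± 0.69). The 9 members that did not pass included Bst2 at 0.99 ± 0.44 and Ifi27l2a at -0.05. Ly6a, an interferon-inducible surface protein used as a stem cell marker elsewhere, was at 99.6, 149 and 192 CPM against 2.66, 4.36 and 0.898 CPM, a log2 fold change of 5.75 ± 0.59 (adjusted p = 2.17e-04). Leaving out 1 library at a time left 26 to 32 of the 40 interferon-stimulated genes called higher, and the count without DDC STAT3KO replicate 3 was 31.

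Genes of MHC class I presentation, which load peptides from inside the cell onto surface molecules, were higher by smaller factors and from high starting levels. H2-K1, a class I heavy chain, was at 4019, 3059 and 4643 CPM in IL-6 STAT3KO and at 1658, 1216 and 944 CPM in DDC STAT3KO, a log2 fold change of 1.62 ± 0.27 (adjusted p = 0.00346). The light chain B2m was at 2424, 2771 and 3754 CPM against 1211, 1053 and 907 CPM (adjusted p = 0.00501). The groups did not overlap for either gene. Larger differences were seen in the peptide-cutting subunit of the immunoproteasome Psmb9 (chr17:34181987-34187764, minus strand), with a log2 fold change of 3.43 ± 0.40, and the peptide transporter Tap1, with 3.07 ± 0.31. Nlrc5, the transactivator of class I genes, was at 77.5, 42.2 and 53.6 CPM against 4.55, 12.2 and 16.8 CPM (2.38 ± 0.47). Class I genes are paralogs, and reads shared between H2-K1, H2-D1 and the H2-Q and H2-T genes may have been split or dropped. Of 27 genes of the standard proteasome none was called by edgeR or DESeq2, 0 had an unadjusted p under 0.05, and the median log2 fold change was -0.02.

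MHC class II genes, which are usually expressed by antigen-presenting cells, were also far higher. Cd74, the invariant chain, was at 1221, 831 and 1814 CPM in IL-6 STAT3KO and at 34.3, 79.5 and 7.63 CPM in DDC STAT3KO, a log2 fold change of 4.99 ± 0.78 (adjusted p = 0.00248). H2-Aa was at 285, 188 and 576 CPM against 12.1, 37.3 and 4.72 CPM (4.26 ± 0.76, adjusted p = 0.00564). Ciita, the transactivator of class II genes, was at 38.4, 10.2 and 31.3 CPM against 0.968, 2.59 and 0 CPM (4.42 ± 0.93, adjusted p = 0.013). No library of 1 group reached into the other for any of the 3 genes, and without DDC STAT3KO replicate 1 the called members of this list fell from 7 to 4 of 8. The exception was Ctss, the lysosomal protease of macrophages and other antigen-presenting cells, at 8.85, 31.4 and 15.8 CPM against 24.0, 32.5 and 3.37 CPM (-0.10 ± 0.66).

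Markers of immune cells are given beside these values. The 14 Kupffer cell and macrophage markers summed to 144 to 379 CPM in IL-6 STAT3KO and to 97.4 to 621 CPM in DDC STAT3KO, against 41.0 to 56.7 CPM with GFP plasmid, and 1 of 14 was called, Cd14, which was lower in IL-6 STAT3KO. Against GFP plasmid none of the 14 was called in IL-6 STAT3KO by edgeR, while 13 had an unadjusted p under 0.05. In DDC STAT3KO 13 were called higher than with GFP plasmid, where 8.5% of all genes tested were. Dendritic cell markers, a list added after the MHC class II values were seen, summed to 6.75 to 9.57 CPM and 7.41 to 13.5 CPM, with 0 of 5 tested called by edgeR or DESeq2 and 0 at an unadjusted p under 0.05. The 2 B cell markers in the table summed to 0.929 to 5.48 CPM and 0.678 to 1.18 CPM. T and NK cell markers were at 2.97 to 3.85 CPM and 0.0748 to 0.727 CPM, where Cd4, at 2.91, 2.98 and 3.85 CPM in IL-6 STAT3KO, was the only member tested and was called higher. Neutrophil markers stayed at or below 2.51 CPM. The macrophage and dendritic cell sums overlapped between the 2 groups, while Cd74, at 1288 ± 495 CPM (SD, n = 3) in IL-6 STAT3KO and 40.5 ± 36.3 CPM (SD, n = 3) in DDC STAT3KO, did not. The macrophage overlap came from DDC STAT3KO replicate 3, at 97.4 CPM, while the other DDC STAT3KO libraries lay above every IL-6 STAT3KO library. Without DDC STAT3KO replicate 3, 3 of the 14 macrophage markers were called lower in IL-6 STAT3KO. The part of other cells in the class II values was not tested. In these bulk libraries fewer cells of a type and less RNA per cell cannot be told apart.

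Chemokine genes went both ways, with 2 of 18 called higher and 2 lower, where 5.01% of all genes tested were higher and 4.83% lower. Ccl2, which attracts monocytes, was at 0.433, 0.994 and 0.117 CPM in IL-6 STAT3KO and at 16.3, 20.1 and 5.39 CPM in DDC STAT3KO, a log2 fold change of -4.76 ± 0.65 (adjusted p = 0.00112), and Ccl7, of the same family, also was lower (-3.69 ± 1.00, adjusted p = 0.0383). Cxcl9, an interferon-gamma-induced attractant of T cells, was at 62.0, 72.3 and 244 CPM against 18.3, 39.3 and 16.9 CPM (2.34 ± 0.68, adjusted p = 0.0489). Its call was lost in 9 of 11 alternatives, among them the fit without IL-6 STAT3KO replicate 3, at 1.43 (adjusted p = 0.231). Cxcl10, induced by the same signal, was at 12.01, 5.34 and 17.97 CPM against 5.71, 23.6 and 40.7 CPM (-0.98 ± 0.85) and did not pass.

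The simple keratins of hepatocytes were higher in DDC STAT3KO. Krt8 (chr15:101996698-102004482, minus strand) was at 391, 489 and 469.7 CPM in IL-6 STAT3KO and at 4006, 2715 and 2618 CPM in DDC STAT3KO, a log2 fold change of -2.79 ± 0.25 (adjusted p = 9.54e-05). Its partner Krt18 (chr15:102028180-102032027, plus strand) was at 186, 268 and 277 CPM against 2068, 1160.0 and 1087 CPM (-2.56 ± 0.30, adjusted p = 4.95e-04). For both keratins all DDC STAT3KO libraries lay above all IL-6 STAT3KO libraries, and DDC STAT3KO replicate 1 was the highest. Anxa2, an annexin that links membranes to actin, was at 8.05, 26.9 and 11.0 CPM against 539, 201 and 110.0 CPM (-4.21 ± 0.59, adjusted p = 0.00131). Tubb2a, a beta-tubulin, was at 26.995, 30.2 and 46.3 CPM against 317, 182 and 665 CPM (-3.49 ± 0.51, adjusted p = 0.00159). The tubulins Tubb5 (-1.38 ± 0.24), Tuba1b (-1.72 ± 0.32) and Tubb6 (-1.64 ± 0.38) and the actins Actb (-0.99) and Actg1 (-1.05 ± 0.26) were lower in IL-6 STAT3KO by smaller factors, while Vim (-0.61 ± 0.69), an intermediate filament of mesenchymal cells, did not pass. All 19 members tested had a negative log2 fold change, with a median of -1.72. The number called moved from 13 to 6 when only the compared groups entered the fit, to 7 without IL-6 STAT3KO replicate 3, and to 15 without DDC STAT3KO replicate 3.

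**Figure D4:**
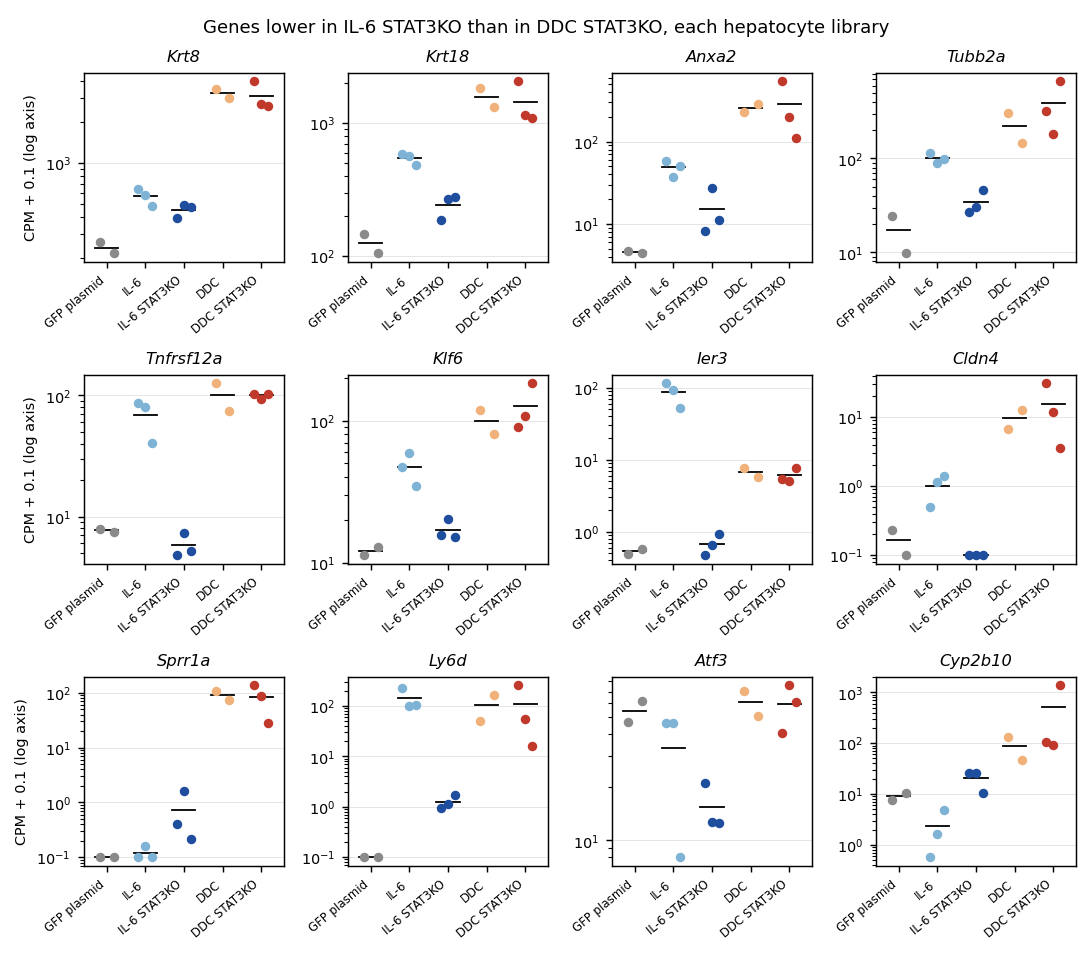
CPM + 0.1 on a log axis for 12 genes higher in DDC STAT3KO in each of the 13 hepatocyte libraries, by group: points are libraries and bars are group means. Krt8 lies at 2618 to 4006 CPM in DDC STAT3KO and at 391 to 489 CPM in IL-6 STAT3KO, and for Cyp2b10 a single DDC STAT3KO library lies far above the rest.

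Genes of injured and biliary-like epithelium were higher in DDC STAT3KO as well. Tnfrsf12a (chr17:23675445-23677468, minus strand), the TWEAK receptor that marks injured liver epithelium, was at 4.71, 7.21 and 5.13 CPM in IL-6 STAT3KO and at 103, 93.6 and 103 CPM in DDC STAT3KO, a log2 fold change of -4.14 ± 0.32 (adjusted p = 4.09e-05). Its DDC STAT3KO libraries lay close together, replicate 3 included. The tight junction gene Cldn4 (chr5:134945119-134946934, minus strand) had no read in any IL-6 STAT3KO library and 947 reads over the DDC STAT3KO libraries, at 30.8, 11.9 and 3.52 CPM, at least 278-fold higher in DDC STAT3KO against a floor of 3 counts over the group. Sprr1a, a cornified envelope protein induced in injured epithelia, was at 0.310, 1.49 and 0.117 CPM against 136, 86.5 and 27.7 CPM (-7.03 ± 0.77, adjusted p = 4.95e-04). Ly6d, a surface protein of epithelial and lymphoid cells, was at 0.867, 1.06 and 1.58 CPM against 256, 54.5 and 16.0 CPM (-6.53 ± 1.04, adjusted p = 0.00352). For Cldn4, Sprr1a and Ly6d replicate 1 was the highest and replicate 3 the lowest DDC STAT3KO library, still above all IL-6 STAT3KO libraries. Hes1, a Notch target gene, was at 10.1, 16.5 and 9.33 CPM against 96.4, 51.9 and 17.9 CPM (-2.21 ± 0.50, adjusted p = 0.0179).

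The count of the biliary list moved with DDC STAT3KO replicate 3. Sox9, the factor that marks bile duct cells and hepatocytes turning on biliary genes, was at 2.91, 7.33 and 6.83 CPM in IL-6 STAT3KO and at 12.8, 14.1 and 4.12 CPM in DDC STAT3KO (-0.87 ± 0.40, adjusted p = 0.194). Replicate 3 of DDC STAT3KO fell inside the IL-6 STAT3KO range, and without it Sox9 passed at -1.24 (adjusted p = 0.0193). Over the whole list 4 of 17 genes were called lower in IL-6 STAT3KO with all libraries and 10 without DDC STAT3KO replicate 3. Of 13 target genes of YAP, a growth regulator active in bile duct cells, edgeR called none. Among them 6 had an unadjusted p under 0.05 and DESeq2 called 5. Without DDC STAT3KO replicate 3 edgeR called 2 of them lower, among 921 genes called lower in that fit. Cyr61, Ctgf and Ankrd1, also on the YAP list, were not among the genes tested. Epcam, which defines cholangiocytes, was at 0 CPM in all IL-6 STAT3KO libraries and at 0.726, 0.636 and 0 CPM in DDC STAT3KO, and the 6 cholangiocyte markers in the table summed to 47.8 to 56.5 CPM and 39.6 to 54.1 CPM.

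Stress response genes were higher in DDC STAT3KO in part of their list. The integrated stress response halts bulk translation and turns on genes of amino acid supply through the factor ATF4. Fgf21 (chr7:45613886-45615490, minus strand), a hormone released by stressed liver, was at 1.05, 0.497 and 1.52 CPM in IL-6 STAT3KO and at 14.1, 2.18 and 39.4 CPM in DDC STAT3KO (-4.16 ± 0.96, adjusted p = 0.0196). Atf3, a stress-induced transcription factor, was at 21.2, 12.5 and 12.4 CPM against 40.7, 75.7 and 61.1 CPM (-1.95 ± 0.51, adjusted p = 0.0335). Neither gene's groups overlapped, though Fgf21 varied widely among DDC STAT3KO libraries and lost its call in 4 of 11 alternatives. Mthfd2 (-2.52 ± 0.43) and Psat1 (-2.09 ± 0.55), enzymes of one-carbon and serine metabolism, the amino acid transporter subunit Slc3a2 (-1.38 ± 0.25), the hormone Gdf15 (-1.11 ± 0.21) and the phosphatase subunit Ppp1r15a (-0.82 ± 0.24) were the other 5 called. Asns, another classical member, went the other way without passing, at 68.4, 36.8 and 24.1 CPM against 10.02, 18.2 and 57.1 CPM (0.61 ± 0.56). The count of 7 became 3 with only the compared groups in the fit, and 3, 4 and 3 without IL-6 STAT3KO replicate 1, 2 or 3.

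The upstream 250 bases of Fgf21 (chr7:45615491-45615740, minus strand) and Atf3 (chr1:191183334-191183583, minus strand) are shown because both hold the letters of the amino acid response element bound by ATF4, TGATGNAA searched on both strands, here on the opposite strand and in capitals (RefSeq, GRCm38.p6).
Fgf21: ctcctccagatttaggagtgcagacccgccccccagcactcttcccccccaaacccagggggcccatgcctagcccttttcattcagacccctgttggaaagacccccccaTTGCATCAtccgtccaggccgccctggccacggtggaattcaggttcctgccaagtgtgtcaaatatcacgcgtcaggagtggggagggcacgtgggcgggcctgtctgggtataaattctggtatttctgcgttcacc
Atf3: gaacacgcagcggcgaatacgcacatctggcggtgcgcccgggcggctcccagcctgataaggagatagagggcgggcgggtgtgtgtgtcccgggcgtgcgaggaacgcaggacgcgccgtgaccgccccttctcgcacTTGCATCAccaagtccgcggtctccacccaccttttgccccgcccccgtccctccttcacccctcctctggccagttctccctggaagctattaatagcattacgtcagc
Of 19 matched members of the integrated stress response list 7 (36.8%) had these letters, against 3.91% of all promoters and 2.56% of those of genes tested. Of the 7 called members only Fgf21 and Atf3 had them. Over all called genes the share was near that background, 14 of 535 called lower (2.62%) and 12 of 520 called higher (2.31%). The interferon-type letters shown above for Igtp were found in 1 of the 19, and in none of 15 matched keratin and cytoskeleton genes.

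Immediate early genes, which respond to growth and stress signals, were lower in IL-6 STAT3KO in 7 of 19 cases. Klf6 (chr13:5861482-5870394, plus strand), a zinc finger factor induced by liver injury, was at 15.7, 20.3 and 15.1 CPM against 90.3, 107 and 182 CPM (-2.89 ± 0.30, adjusted p = 2.17e-04). Ier3, an immediate early regulator of cell survival, was at 0.371, 0.559 and 0.817 CPM against 5.37, 5.00 and 7.63 CPM (-3.33 ± 0.37, adjusted p = 3.39e-04). Fosl1, a subunit of AP-1, had 2 reads over the IL-6 STAT3KO libraries and 138 over the DDC STAT3KO libraries, a ratio of 60.8 with a counting interval of 16.5 to 507. Each of these 3 genes was higher in every DDC STAT3KO library. Fos (0.13 ± 0.42) and Jun (-0.69 ± 0.28) did not pass, and IL-6 STAT3KO replicate 1 stood above its group for both: Fos was at 182, 45.0 and 52.2 CPM and Jun at 335, 133 and 176 CPM. The count of 7 became 4 without IL-6 STAT3KO replicate 2 or replicate 3.

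In the list of oxidative stress genes 16.7% were called and in the haem list 5.88%, where 9.83% of all genes tested were. Of all genes tested 4.83% were called lower. NRF2 is the transcription factor that responds to oxidants and electrophiles. Of 30 NRF2 target genes 4 were lower and 1 higher in IL-6 STAT3KO, and the 4 became 1 or 2 without any single IL-6 STAT3KO library or DDC STAT3KO replicate 1. Srxn1, which repairs peroxiredoxins, was at 113, 143 and 288 CPM against 775, 366 and 491 CPM (-1.58 ± 0.37, adjusted p = 0.0213), and it stood at 34.1 and 36.7 CPM with GFP plasmid. Nqo1, a quinone reductase, was at 18.6, 28.4 and 42.2 CPM against 24.6, 27.3 and 24.2 CPM (0.23 ± 0.25) and at 5.31 and 5.30 CPM with GFP plasmid. Against the GFP plasmid libraries, which both contrasts share, 8 of the 30 were higher in IL-6 STAT3KO and 18 in DDC STAT3KO, where 2.26% and 8.5% of all genes tested were. In the haem list 1 of 17 was called, Hmox1, which degrades haem, at 8.36, 12.7 and 16.7 CPM against 56.7, 54.3 and 22.004 CPM (-1.82 ± 0.45, adjusted p = 0.0269), while Alas1, the first enzyme of haem synthesis, was at 1042, 1121 and 773 CPM against 554, 1129 and 2906 CPM and Fech, the last, differed by 0.20 ± 0.18.

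Many genes of hepatocyte metabolism were higher in IL-6 STAT3KO, with counts that moved with the libraries. Tdo2, the first enzyme of tryptophan breakdown, was at 2779.5, 2729 and 3932 CPM against 874, 582 and 1056 CPM (1.91 ± 0.29, adjusted p = 0.00231), and Kynu, a later enzyme of that pathway, was at 213, 254 and 219 CPM against 87.4, 101 and 132 CPM (1.10 ± 0.19, adjusted p = 0.00421). Of 34 genes of amino acid and urea metabolism 14 were called higher and 33 had a positive log2 fold change, with a median of 0.93. The shares over all genes tested were 5.01% higher and 4.83% lower. The number called was 22 without DDC STAT3KO replicate 3, fell to between 5 and 8 without any single one of the other 5 libraries, and was 3 with only the compared groups in the fit. Periportal genes, expressed around the incoming vessels, were called higher in 8 of 17 cases, led by Cyp2f2 (1262, 954 and 1304 CPM against 192, 296 and 448 CPM, 1.91 ± 0.31, adjusted p = 0.00325). The periportal count fell to 4 or 5 without any single one of these libraries other than DDC STAT3KO replicate 3. Of 18 pericentral genes 1 (5.56%) was called, the transporter Slc1a4, which was lower, a share near the 4.83% of all genes tested. Summed amino acid and urea genes were at 33293 to 42439 CPM in IL-6 STAT3KO, 35341 to 41522 CPM with GFP plasmid and 14471 to 29937 CPM in DDC STAT3KO.

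Bile acid and drug metabolism differed gene by gene. Cyp7b1, a hydroxylase of the alternative bile acid pathway, was at 381, 328 and 499 CPM against 59.8, 38.7 and 58.6 CPM (2.94 ± 0.38, adjusted p = 8.69e-04). Cyp7a1, which catalyses the first step of the classical pathway, was at 500.1, 355 and 309 CPM against 32.2, 61.4 and 5.99 CPM (3.54 ± 0.83, adjusted p = 0.0204). The uptake transporter Slco1a1 was at 251, 132 and 473 CPM against 38.5, 29.3 and 41.2 CPM (2.97 ± 0.39, adjusted p = 9.52e-04), while the efflux pump Abcb1a was lower, at 12.7, 9.94 and 8.58 CPM against 44.9, 35.8 and 46.6 CPM (-2.03 ± 0.37, adjusted p = 0.00617). None of these 4 genes had overlapping groups. Over the bile acid list 8 of 26 were called higher and 1 lower, where 5.01% of all genes tested were higher and 4.83% lower. Without DDC STAT3KO replicate 3 the list counts were 13 and 1. The 8 became 3 without IL-6 STAT3KO replicate 1 or DDC STAT3KO replicate 1, and 5 without IL-6 STAT3KO replicate 3 or DDC STAT3KO replicate 2. The carboxylesterases Ces3b (3.21 ± 0.33) and Ces3a (2.35 ± 0.29) and the sulfotransferase Sult5a1 (4.40 ± 0.52) were higher, among 8 of 30 conjugation and esterase genes called, a count of 3 without IL-6 STAT3KO replicate 3 and 5 without DDC STAT3KO replicate 1. Among 30 P450 genes 5 were higher and 3 lower, and the 5 fell to between 1 and 3 without any single IL-6 STAT3KO library or DDC STAT3KO replicate 2. The 3 became 0, 1 and 0 without IL-6 STAT3KO replicate 1, 2 or 3, and 1 without DDC STAT3KO replicate 3. The lower ones were Cyp2b10 (26.1, 25.6 and 10.3 CPM against 103.6, 91.9 and 1368 CPM, adjusted p = 0.0198), Cyp2c55 (-2.43 ± 0.60) and Cyp2c29 (-2.46), genes of the drug-sensing receptors CAR and PXR, and the Cyp2b10 call was kept in 5 of 10 alternatives. Without DDC STAT3KO replicate 3 the log2 fold change of Cyp2b10 moved from -4.65 to -2.24, and Cyp2c55 no longer passed (-1.81, adjusted p = 0.0552). Of 21 sterol synthesis genes none was called by edgeR or DESeq2 and 1 had an unadjusted p under 0.05.

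Male-biased liver genes and major urinary proteins, both held up by pulsed growth hormone, were higher in IL-6 STAT3KO than in DDC STAT3KO. Hsd3b5, a male-specific steroid reductase, was at 7.12, 14.4 and 61.4 CPM against 0.242, 0.454 and 0.524 CPM (6.10 ± 0.89, adjusted p = 0.00211), and both groups lay below the GFP plasmid libraries at 325 and 151 CPM. Ghr, the growth hormone receptor, was at 811, 613 and 731 CPM against 147, 213 and 336 CPM (1.63 ± 0.31, adjusted p = 0.0086), and Igf1, its main hepatic output, at 603, 792 and 625 CPM against 235, 293 and 379 CPM (1.16 ± 0.23, adjusted p = 0.00954). Of 16 male-biased genes 8 were called higher and of 19 major urinary protein genes 9, whose near-identical copies make single values uncertain. Of all genes tested 5.01% were called higher. Of 17 female-biased genes 3 were called higher and 0 lower. Against GFP plasmid, 8 of the 19 major urinary protein genes were called lower in IL-6 STAT3KO and 17 in DDC STAT3KO. The shares of all genes called lower there were 0.865% and 7.39%. Mup20, a male pheromone carrier, did not follow: it was at 346, 195 and 944 CPM against 7908, 3162 and 123 CPM (-2.91 ± 1.04, adjusted p = 0.1). Of the 19 major urinary protein genes 4 had a negative log2 fold change. Without DDC STAT3KO replicate 3, 9 of the 19 were called higher and 2 lower.

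Among secreted plasma proteins, some complement and coagulation genes were higher in IL-6 STAT3KO than in DDC STAT3KO. Serping1, the inhibitor of the first complement component, was at 1012, 991 and 1284 CPM against 236, 233 and 274 CPM (2.14 ± 0.21, adjusted p = 1.64e-04), and C4b, a complement component, at 3070.3, 2199 and 2635 CPM against 761, 843 and 754 CPM (1.75 ± 0.22, adjusted p = 6.60e-04). C3, the central complement component (0.13), and Cfb, of the alternative pathway (0.14), were among those that did not pass. Of 35 coagulation and complement genes 11 were called higher and 1 lower, and the 11 became 5 without IL-6 STAT3KO replicate 1 or replicate 3 and 7 without DDC STAT3KO replicate 2. Of all genes tested 5.01% were called higher and 4.83% lower. Against GFP plasmid edgeR called 0 of the 35 in IL-6 STAT3KO, with 7 at an unadjusted p under 0.05. In DDC STAT3KO it called 1 higher and 11 lower. Saa1 was at 21.9, 37.9 and 17.4 CPM against 1.60, 3.63 and 0.748 CPM (3.65 ± 0.65, adjusted p = 0.00564), and its GFP plasmid libraries were at 31.9 and 72.0 CPM, above the IL-6 STAT3KO median. Of 31 positive acute phase genes 6 were called higher and 1, Lrg1, lower. Against GFP plasmid 1 of the 31 was called higher in IL-6 STAT3KO, and 4 were called higher and 10 lower in DDC STAT3KO. The shares of all genes there were 2.26% higher in IL-6 STAT3KO, and 8.5% higher and 7.39% lower in DDC STAT3KO. Hp and Fgb did not pass: Hp, which binds haemoglobin, was at 3778, 3479 and 4456 CPM against 8125, 3934 and 3843 CPM, and Fgb, a fibrinogen chain, at 3133, 3365 and 2544 CPM against 2109, 2056 and 2300.5 CPM (0.48 ± 0.26).

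Measured against the GFP plasmid libraries, which differ in genotype and AAV and are shared by both contrasts, 448 genes (3.12%) were called in IL-6 STAT3KO and 2278 (15.9%) in DDC STAT3KO. Of the 40 interferon-stimulated genes 33 were higher in IL-6 STAT3KO than with GFP plasmid and 7 in DDC STAT3KO. Over all genes tested 2.26% and 8.5% were higher there, and 0.865% and 7.39% lower. For MHC class II the counts of higher genes were 7 and 1 of 8, and for the guanylate-binding proteins 9 and 4 of 11, with 1 lower in DDC STAT3KO. Of the keratin and cytoskeleton genes none of 19 was called in IL-6 STAT3KO by edgeR, with 4 at an unadjusted p under 0.05, and 14 were higher in DDC STAT3KO. Of the amino acid and urea genes none of 34 was called in IL-6 STAT3KO by edgeR, with 3 at an unadjusted p under 0.05, and 13 were lower in DDC STAT3KO. For Igtp the 2 log2 fold changes over GFP plasmid were 4.76 ± 0.38 and -0.65 ± 0.30, and for Krt8 they were 0.92 ± 0.27 and 3.71 ± 0.31. Male-biased genes were lower than with GFP plasmid in 2 of 16 cases in IL-6 STAT3KO and in 9 of 16 in DDC STAT3KO.

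The same contrast, IL-6 against DDC, can be taken with STAT3 intact, and the difference of the 2 contrasts was tested as an interaction. Genotype and AAV are not matched there, since the IL-6 mice were wild type without AAV and the DDC mice floxed with AAV-TBG-GFP. The interaction was called for 1187 genes (8.28%), 602 (4.2%) with a higher and 585 (4.08%) with a lower IL-6-to-DDC ratio when STAT3 was deleted. Igtp was at 15.9, 17.3 and 25.3 CPM in IL-6 and at 17.7 and 9.76 CPM in DDC with STAT3 intact, a log2 fold change of 0.51 ± 0.31, and the difference to the deleted contrast was 4.90 ± 0.42 (adjusted p = 1.33e-04). Of the immune lists 29 of 40 interferon-stimulated genes, 9 of 11 guanylate-binding proteins, 7 of 7 immunity-related GTPases, 13 of 21 MHC class I and 7 of 8 MHC class II genes were called in the interaction, all with a higher IL-6-to-DDC ratio under deletion. The 13 MHC class I genes became 7 without IL-6 STAT3KO replicate 3, DDC replicate 1 or DDC replicate 2 and 8 without IL-6 replicate 2, and the 7 MHC class II genes became 4 without DDC replicate 2.

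**Figure D5:**
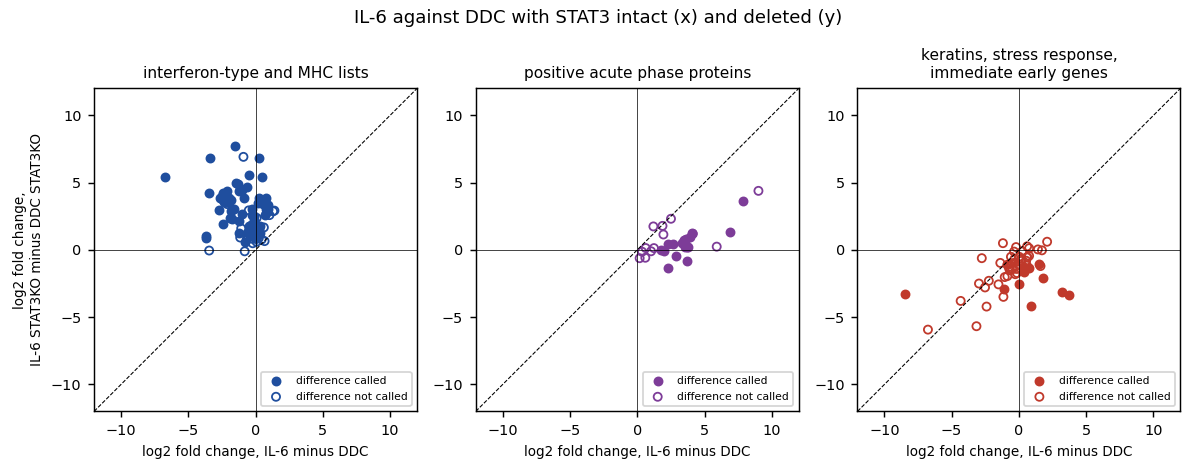
Log2 fold change of IL-6 STAT3KO over DDC STAT3KO (y axis) against that of IL-6 over DDC with STAT3 intact (x axis), for the genes of 3 sets of lists in 3 panels. Filled points were called in the test of the difference and the dashed line marks equal values: the interferon and MHC genes lie mostly above the line, Igtp at 5.41 on the y axis and 0.51 on the x axis.

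Genes outside the interferon lists took other courses in that test. Socs1 was at 24.6, 29.9 and 15.8 CPM in IL-6 against 0.424 and 0.223 CPM in DDC with STAT3 intact, and its difference was 0.44 ± 0.84 (adjusted p = 0.803), an interval too wide to show that the contrasts are equal. Socs3 was at 270.2, 292 and 216 CPM in IL-6 and 32.6 and 15.1 CPM in DDC with STAT3 intact, and its difference was -4.26 ± 0.48 (adjusted p = 3.42e-04). Of the 31 acute phase genes 18 had a lower ratio under deletion and none a higher one, and the 18 became 11 without DDC replicate 2. Krt8 differed between IL-6 and DDC with STAT3 intact by -2.52 ± 0.26, and its interaction was -0.27 ± 0.35 (adjusted p = 0.693). Of the 19 keratin and cytoskeleton genes 1 had a higher and 2 a lower ratio under deletion. Tnfrsf12a was at 86.8, 80.8 and 40.1 CPM in IL-6 and at 126 and 74.6 CPM in DDC with STAT3 intact, where it differed by -0.53 ± 0.31, and its interaction was -3.60 ± 0.44 (adjusted p = 6.87e-04). Among conjugation genes 21 of 30 had a higher IL-6-to-DDC ratio under deletion and none a lower one. The background shares beside these counts are 4.2% higher and 4.08% lower.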

How the data were processed

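RNA-seq counts of 13 mouse hepatocyte libraries were used, 6 of them in the comparison itself. Per the submitters' processing notes, STAR, HTSeq and DESeq2 were used with the mm10 build. The sources used here give no versions, annotation release or strand setting. The values are raw counts per gene, as deposited by the authors, for 18668 genes.

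Counts were fitted with edgeR 4.0.16 (R 4.3.3; trimmed-mean scaling, genes kept by expression within groups, quasi-likelihood F test, 1 term per group over the 13 libraries, 8 residual degrees of freedom), with Benjamini-Hochberg adjustment over 14339 genes. CPM use the scaled library sizes. The SE is the log2 fold change divided by the root of F. The row of the EGFP transgene was kept out of the fit. Ratios of low counts use a floor of 3 counts and 95% intervals, which cover counting error only. Gene positions are from GENCODE M21 (GRCm38). Scripts were tested on simulated data. Alternatives were DESeq2 1.42.0, median-of-ratios scaling, no filter, only the compared groups, a replicate block and leaving out each library.

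The comparison and the gene lists were chosen with earlier results of these data known. Named genes are fixed pathway genes, the 12 largest differences per direction among genes of at least 20 CPM whose groups do not overlap, the 5 per direction for the test of the difference, and up to 4 members per list by adjusted p. Genes named beyond this rule were chosen after their values were seen. Some genes of the table are not reported here.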

Additional observations from a re-analysis of the deposited data

Results flagged for a closer look

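The test of the difference between the STAT3-deleted and the STAT3-intact contrast of IL-6 and DDC picked out 602 genes with a higher and 585 with a lower IL-6-to-DDC ratio under deletion. Because genotype and AAV were not matched in the intact groups, their part in these differences cannot be told apart from that of STAT3. Among the interferon-type genes the log2 difference was 10.23 for Gbp10, 9.27 for Tgtp2, 6.62 for Tgtp1, 6.61 for Ly6a, 6.19 for Gbp6, 6.01 for Gbp11, 5.45 for Gbp9, 5.29 for Gbp8 and 4.90 for Igtp. For the MHC class II genes Cd74 and H2-DMa it was 6.46 and 5.63. Leaving out single DDC libraries ended the call for Gbp11, at 4.43 without DDC replicate 1, and for H2-DMa, at 4.03 without DDC replicate 2.

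Socs3, the STAT3-induced inhibitor, had a difference of -4.26 and the biliary factor Sox9 one of -2.45. Ly6d (-6.97), Cd63 (-4.89), Tnfrsf12a (-3.60) and Klf6 (-1.80) also had lower ratios under deletion. The calls of Sox9, Ly6d, Cd63 and Klf6 were lost when some single libraries were left out. Differences picked by size were seen for Car3 (9.46), Gsta1 (8.79) and Gsta2 (8.54) in one direction. In the other stood A2m (-13.45), Rtn4rl2 (-9.98), Igdcc4 (-9.14), Obp2a (-7.23) and Cyp17a1 (-7.09). Gsta1 and Gsta2 are paralogs whose shared reads may have been split. The call of A2m was near the threshold (edgeR's quasi-likelihood test, adjusted p = 0.0493) and was kept in only 6 of 16 alternatives. Obp2a kept its call in 14 of 16 and Cyp17a1 in 15 of 16. These 2 calls were lost without single libraries, for Obp2a without DDC replicate 1 or DDC replicate 2.

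Reads of the EGFP transgene were counted in libraries whose labels name no GFP vector. They reached 0.867, 0.559 and 1.34 CPM in IL-6 STAT3KO and 486 CPM in IL-6 replicate 3, while the other IL-6 libraries had 9.24 and 5.73 CPM. DDC STAT3KO libraries had 0.0484, 0 and 0 CPM, the DDC libraries with AAV-TBG-GFP 1186 and 1229 CPM, and the GFP plasmid libraries 2.18 and 2.41 CPM.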

How the results depend on the processing

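No result changed direction past its threshold under any alternative run. Against 718 genes called higher and 692 lower, a fit of only the compared groups called 338 and 220, of which 529 of 558 were among the 1410 calls, and an absolute log2 fold change over 1 left 417 lower. Leaving out 1 library gave 370 to 1000 higher and 232 to 921 lower, the smallest without IL-6 STAT3KO replicate 3 and the largest without DDC STAT3KO replicate 3. Median-of-ratios scaling gave 730 and 686, no filter 624 and 669, and DESeq2 1049 and 1037. In the test of the difference, DESeq2 called 884 higher and 1007 lower, and leaving out 1 library gave 304 to 858 higher and 155 to 753 lower, lowest without DDC replicate 2 and highest without DDC STAT3KO replicate 3. Same-numbered libraries did not deviate together (correlations -0.159, 0.318 and 0.0446), so they share only a number; with the replicate block 734 genes were higher and 641 lower, and 700 and 598 in the test of the difference. Of 122 named genes called, 75 were called under every alternative that gave an adjusted p, among them Igtp, Gbp7, Cd74, Krt8 and Tnfrsf12a. Many named genes were picked by size or adjusted p in this comparison, so that share does not stand for all calls. Of the 1410 calls 37.5% were kept with only the compared groups in the fit and 41.8% without IL-6 STAT3KO replicate 3. With 3 libraries per group and 13.6 M to 18.2 M counts, low genes such as Il6 and Epcam rest on few reads.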

Other observations

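Some genes split by library rather than by group. C8a, a subunit of the complement membrane attack complex made by hepatocytes, was at 302, 2.92 and 369 CPM in IL-6 STAT3KO replicates 1 to 3 and at 1.65, 226 and 2.17 CPM in DDC STAT3KO. With STAT3 intact it was at 21.4, 915 and 642 CPM in IL-6 and at 367 and 1.96 CPM in DDC, and with GFP plasmid at 639 and 502 CPM. High and low libraries thus occurred within 4 of the 5 groups. Its log2 fold change between the STAT3-deleted groups did not pass edgeR's quasi-likelihood test (adjusted p = 0.675).

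IL-6 STAT3KO replicate 2 stood alone for a pair of genes expressed mainly in female liver. Across its group Cyp3a41a was at 0.743, 54.4 and 0.117 CPM and at 0, 0 and 0.0748 CPM in DDC STAT3KO, and Sult2a1, a bile acid sulfotransferase, was at 1.61, 23.2 and 1.05 CPM in IL-6 STAT3KO. The sex-linked transcripts did not set replicate 2 apart. In IL-6 STAT3KO Xist was at 0.557, 0.0621 and 0.292 CPM and Uty, on chromosome Y, at 24.0, 32.1 and 29.3 CPM. Why replicate 2 differed was not tested.

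The first enzyme of haem synthesis in red cell precursors, Alas2, was at 83.0, 70.0 and 116 CPM in IL-6 STAT3KO, at 17.5, 19.5 and 13.2 CPM in DDC STAT3KO and at 161 and 175 CPM with GFP plasmid. The log2 fold change between the STAT3-deleted groups was 2.41 ± 0.30 (edgeR's quasi-likelihood test, adjusted p = 6.62e-04). The 3 erythroid markers in the table summed to 70.3 to 116 CPM and 13.3 to 19.7 CPM in the 2 groups, nearly all of it Alas2.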
